A study of Mus musculus with 4 samples.

Results

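The genes described here are those of the interferon response and of antigen presentation, chosen by name from a list of 47 genes. The deposited table held a row for 44 of them among its 18169 rows, each name in 1 row, and H2-T23, Raet1d and Raet1e had no row. The names fell into 4 sets, which are given apart: 16 genes of MHC class I and antigen processing, 5 ligands of the receptor NKG2D, 9 interferon receptors and signalling genes, and 17 interferon-stimulated effectors. The choice by name uses no measured value, but the genes were chosen with earlier results of these data known.

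The study asked what loss of Chd5, a chromatin remodeler, does to primary neural stem/progenitor cells (NSCs). RNA of these cells was sequenced in 2 samples of wild-type (+/+) mice and 2 samples of Chd5-/- mice, all on the C57BL/6 strain. The cells came from the periventricular region of the brain of individual newborn pups and were grown with epidermal growth factor and fibroblast growth factor 2. The labels do not tie each sample to a pup, so the p-values below measure the spread between these samples, which may in part be technical. The age entries read postnatal day 1 and 2 for the +/+ samples and postnatal day 3 and 4 for the Chd5-/- samples, whereas the growth protocol gives day 1 for all of them. Age as labelled and genotype therefore cannot be told apart.

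Interferons are secreted proteins that warn cells of infection. Type I interferon binds Ifnar1 and Ifnar2, and interferon gamma binds Ifngr1 and Ifngr2. Both signal through Jak kinases to transcription factors, which bind DNA elements beside the genes they switch on: complexes that hold Stat2 and Irf9 bind the interferon-stimulated response element (ISRE), and the gamma-activated site (GAS) answers to interferon gamma. Among the genes switched on are antiviral effectors and the parts of the MHC class I pathway, in which peptides made by the proteasome are carried into the endoplasmic reticulum, loaded on a heavy chain bound to B2m and shown on the cell surface to T cells. NKG2D ligands are surface proteins that natural killer cells read as a sign of stress. Neural cells in the resting brain carry little MHC class I.

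The DNA letters beside some of these genes are shown because such elements mark many interferon targets. The sequences are the RefSeq promoters of build GRCm38.p6, 5′ to 3′ on the strand of the gene, and run from 250 bases before to 50 after the start of the gene. Promoters were found for 35 of the 44 genes, 40 promoters in all. Capitals mark the ISRE core GAAANNGAAA, searched on both strands, so that a match on the other strand reads TTTCNNTTTC.
Isg15 (3 overlapping matches; chr4:156200855-156200916, minus strand): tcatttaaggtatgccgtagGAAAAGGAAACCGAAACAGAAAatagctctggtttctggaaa
Bst2 (2 overlapping matches; chr8:71537567-71537622, minus strand): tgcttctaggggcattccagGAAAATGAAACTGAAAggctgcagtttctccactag
Ifit1 (2 matches; chr19:34640765-34640833, plus strand): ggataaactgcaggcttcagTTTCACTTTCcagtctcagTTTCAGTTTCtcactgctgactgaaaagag
Ifit3 (2 matches; chr19:34583353-34583436, plus strand): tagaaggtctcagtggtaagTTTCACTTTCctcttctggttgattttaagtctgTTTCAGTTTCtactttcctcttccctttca
Ifitm2 (1 match; chr7:140955978-140956027, minus strand): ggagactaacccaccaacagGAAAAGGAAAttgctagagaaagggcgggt
B2m (1 match; chr2:122147528-122147577, plus strand): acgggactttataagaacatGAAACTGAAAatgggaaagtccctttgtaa
Stat2 (1 match; chr10:128270256-128270305, plus strand): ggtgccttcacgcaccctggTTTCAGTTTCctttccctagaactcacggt

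In Irf1, the capitals mark instead a GAS, TTCNNNGAA, which reads the same on both strands.
Irf1 (1 match; chr11:53769904-53769952, plus strand): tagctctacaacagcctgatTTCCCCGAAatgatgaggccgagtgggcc

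The ISRE core lay in 14 of the 40 promoters (35%), against 3.44% of all 32851 promoters of the same length. Besides the genes above, Rsad2, Oas1a, Ddx58, Erap1, Ifih1, Ifitm3 and Psme1 held it. The GAS lay in 10 of the 40 (25%), against 8.30% of all promoters: those of Bst2, H2-M3, Ifi35, Ifit2, Ifitm3, Ifnar1, Ifnar2, Irf1, Oas1a and Psmb8. In Bst2 a GAS overlaps the first ISRE core by a few bases. A match of letters is a description and not a measured binding site.

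Chd5 itself was measured first, as a check of the labels. Its level was 0.39 and 0.37 TPM (a level scaled for transcript length and for the total of the sample) in the +/+ samples and 0.06 and 0.04 TPM in the Chd5-/- samples. It was lower in both Chd5-/- samples, as the labels say, at levels under 1 TPM in all 4 samples. The 10 NSC markers summed to 9870 and 8188 TPM in the +/+ samples and 3987 and 6907 TPM in the Chd5-/- samples. 4 of the 10 were lower in both Chd5-/- samples and 1 was higher in both, where 13% and 46.3% of all rows tested below were. Of 11 markers of microglia and other leukocytes, cells that carry MHC and interferon-induced transcripts in brain, 3 had a row. They summed to 0.32 to 0.42 TPM in the +/+ samples and 0.34 to 0.75 TPM in the Chd5-/- samples, with Aif1 at 0 in 3 samples and 0.17 TPM in Chd5-/- replicate 1. In RNA of whole cultures, fewer cells of a type and less RNA per cell cannot be told apart.

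Genotypes were compared as the difference in log2(TPM + 1), Chd5-/- minus +/+, with limma. On this scale a change in a weakly expressed gene looks smaller than it is. 12576 rows averaged 1 TPM or more over the 4 samples, and these were tested, with p-values adjusted over all of them. 40 of the genes described here were among them, and H2-M3, Nlrc5, Mx1 and Oas1a were under that level. In 7 of the 40 the +/+ mean was under 1 TPM, so they entered the test only through their Chd5-/- level. They were Tap2, Psmb8, Psmb9, Irf7, Isg15, Ifi35 and Usp18, and their p-values are no support for a difference. In 1 (Ulbp1) the reverse held.

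None of the 40 genes had an adjusted p under 0.05 (0.0557% of all rows did). The smallest adjusted p was 0.12, for Ifitm2 and Ifitm3. At an unadjusted p under 0.05, limma had 18 of the 40 higher in Chd5-/- cells and 0 lower, where 21.9% of all rows were higher and 2.27% lower. The 18 include Tap2, Irf7, Isg15, Ifi35 and Usp18, which entered the test only through their Chd5-/- level. This count rested on both +/+ samples: it was 7 without +/+ replicate 1 (12% of all rows were then higher and 0.747% lower) and 3 without +/+ replicate 2 (5.75% higher and 0.644% lower). 16 of the 18 differed at least 2-fold on this scale. Whatever their p, 18 of the 40 were at least 2-fold higher, as were 2330 of the 12576 rows. The levels of the 2 Chd5-/- samples were both above those of the 2 +/+ samples in 29 of the 40 (46.3% of all rows tested), and both below them in 2 (13% of all rows tested). The 29 include all 7 genes that entered only through their Chd5-/- level. Counting the 4 low genes too, 33 of 44 were higher in both and 2 lower in both, where 41.1% and 10.6% of the 18169 rows were.

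The whole table was shifted the same way. The median of all rows tested was 0.34 on the log2 scale, where scaling by median-of-ratios factors gave 0.0052 and quantile normalization gave -0.054. It was -0.037 once each sample had been cleared of its trends with transcript GC content and length. After median-of-ratios scaling 12 of the 40 genes were higher and 1 lower at an unadjusted p under 0.05 (12% and 10.4% of all rows). After quantile normalization 6 were higher and 1 lower (8.77% and 8.14% of all rows). With the GC and length trends removed, 4 of the 39 genes that had both values were higher and 0 lower (5.11% and 6.42% of all rows): Ifitm2, Ifitm3, Ifit3 and Stat2. The difference rose with GC content both across the 39 genes (Spearman's rho = 0.67) and across 12103 rows (rho = 0.60), which share their libraries. The median GC content was 54.2% in the 18 genes higher at an unadjusted p under 0.05, 49.8% in the 21 others and 49.2% in all rows. Each set below is therefore given with both values, as deposited and with these trends removed.

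**Figure D1:**
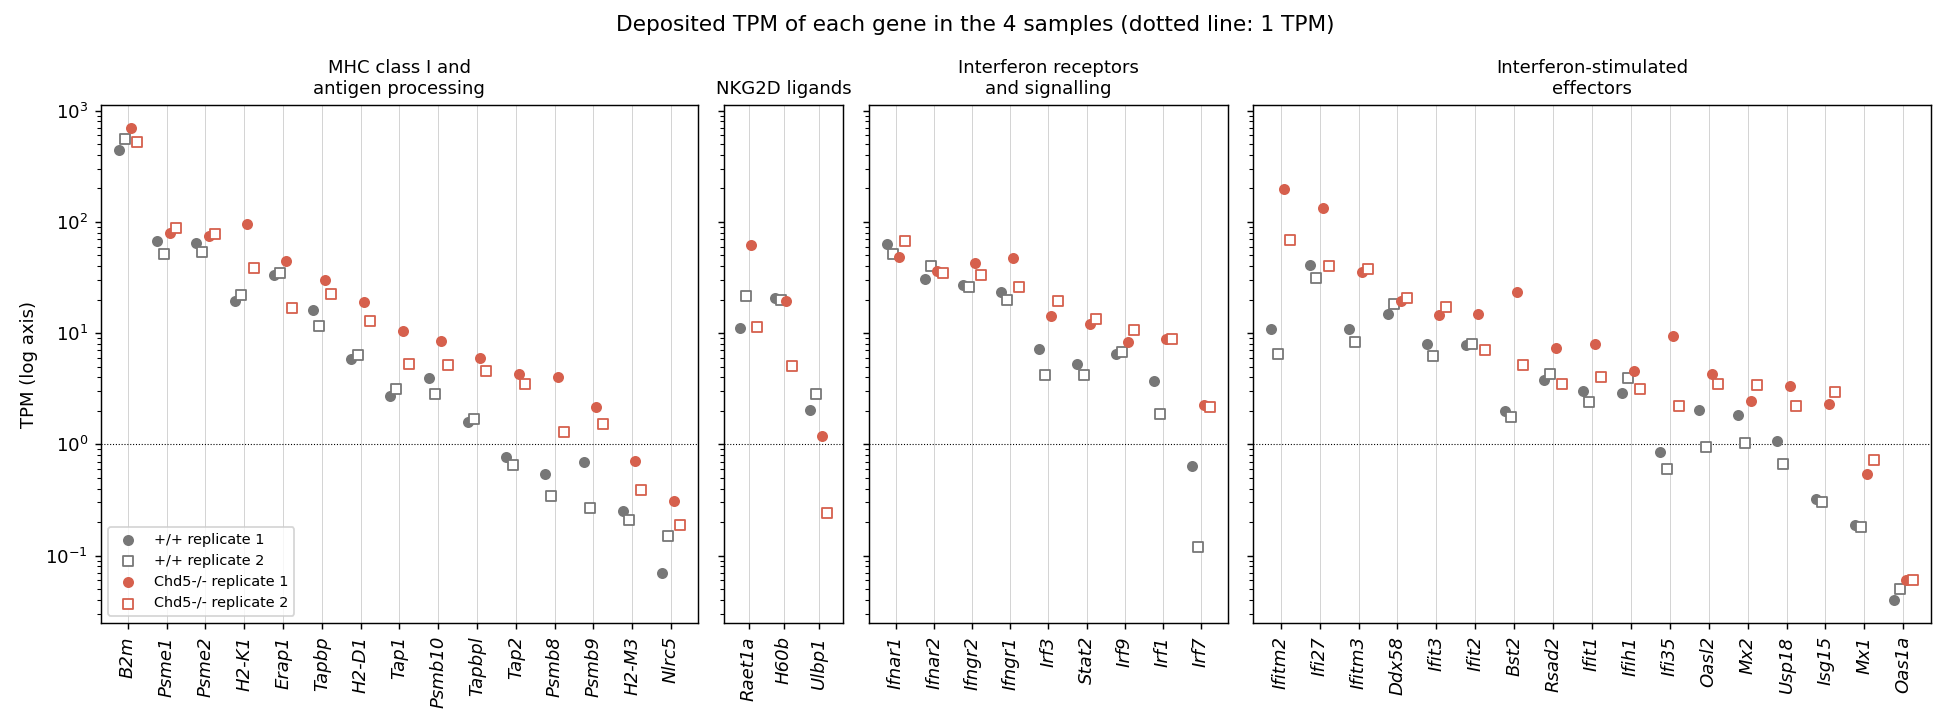
Deposited level in TPM (log axis) of the 44 genes in each of the 4 samples, in 4 panels by set and ordered by mean level. Grey marks are +/+ and red marks Chd5-/-, with filled circles for replicate 1 and open squares for replicate 2, and the dotted line marks 1 TPM. The red marks lie above both grey marks in 33 genes, and in Ulbp1 and H60b below them.

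The first set holds the MHC class I genes and the machinery that feeds them. Of its 15 rows, 13 were tested, 6 were higher in Chd5-/- cells at an unadjusted p under 0.05 and 0 were lower. Among all rows, 21.9% were higher and 2.27% lower. The median difference as deposited was 0.94. This was the value of Psmb9 (+/+ mean 0.48 TPM), which entered the test only through its Chd5-/- level. The median was 0.26 with those trends removed, when 0 of 13 passed, where 5.11% of all rows were higher and 6.42% lower. The median GC content of the set was 54.3%.

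The classical heavy chain gene H2-K1 (chr17:33996017-34000347 on GRCm38) was at 19.52 and 21.86 TPM in +/+ cells and 95.65 and 38.35 TPM in Chd5-/- cells. The groups did not overlap, and replicate 1 was 2.49 times as high as replicate 2 within Chd5-/-. The difference was 1.51 (standard error 0.46, unadjusted p = 0.020 and adjusted p = 0.15 by limma), and 0.74 with the trends removed. H2-D1, the other classical heavy chain gene, was at 5.90 and 6.4 TPM against 18.98 and 12.80 TPM, a difference of 1.22 (standard error 0.31, unadjusted p = 0.0097 and adjusted p = 0.13 by limma), and 0.36 with the trends removed. Both are near-identical in parts to each other and to other class I genes, so reads may have been split between them. B2m, the light chain that every class I heavy chain needs, was the most abundant gene of the set at 445.47 and 553.81 TPM against 694.45 and 527.09 TPM. Its groups overlapped, and the difference was 0.28 with a 95% interval from -0.40 to 0.97. As a ratio within each sample, B2m was 17.5 and 19.6 times the sum of H2-K1 and H2-D1 in +/+ cells and 6.06 and 10.3 times in Chd5-/- cells. This ratio is of deposited values, and the GC content of B2m (41.2%) is below that of H2-K1 (54.3%) and H2-D1 (55.9%). With the trends removed the differences were 0.26 for B2m, 0.36 for H2-D1 and 0.74 for H2-K1, closer together than as deposited. H2-M3, a non-classical heavy chain gene, lay under 1 TPM in every sample (0.25 and 0.21 against 0.71 and 0.39 TPM).

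Tap1 and Tap2 form the transporter that carries peptides into the endoplasmic reticulum. Tap2 was at 0.77 and 0.65 TPM in +/+ cells and 4.26 and 3.51 TPM in Chd5-/- cells, with the Chd5-/- samples close to each other. Its difference was 1.51 (standard error 0.33, unadjusted p = 0.0055 and adjusted p = 0.12 by limma), and 0.63 with the trends removed. Tap2 entered the test only through its Chd5-/- level. Tap1 was at 2.72 and 3.15 TPM against 10.41 and 5.24 TPM, and differed by 1.10 (0.30 with the trends removed). Tapbp (tapasin) and its relative Tapbpl edit the peptides bound to class I. Tapbpl was at 1.60 and 1.68 TPM against 5.94 and 4.61 TPM, a difference of 1.24. Tapbp was at 16.28 and 11.59 TPM against 29.73 and 22.51 TPM, a difference of 0.87 that became -0.038 with the trends removed. Erap1, which trims peptides inside the endoplasmic reticulum, overlapped between the groups (33.05 and 34.62 against 44.83 and 16.77 TPM).

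Psmb8, Psmb9 and Psmb10 replace the catalytic subunits Psmb5, Psmb6 and Psmb7 in the immunoproteasome. All 3 were higher in both Chd5-/- samples, and none passed an unadjusted p of 0.05. Psmb8 was at 0.54 and 0.34 TPM against 4.03 and 1.29 TPM (difference 1.24, unadjusted p = 0.051 and adjusted p = 0.21 by limma). Psmb9 was at 0.69 and 0.27 TPM against 2.15 and 1.51 TPM, and Psmb10 was at 3.98 and 2.82 TPM against 8.44 and 5.13 TPM. Both catalytic forms can be set side by side in each sample. Psmb9 was 1.36% and 0.748% of Psmb6 in +/+ cells and 2.27% and 1.69% in Chd5-/- cells. Psmb10 was 1.15% and 1.06% of Psmb7 in +/+ cells and 2.00% and 1.55% in Chd5-/- cells. Psmb8 was 0.281% and 1.63% of Psmb5 against 1.16% and 0.948%, which overlap, since Psmb5 itself ranged from 20.88 to 346.29 TPM. On the log2(TPM + 1) scale, which shrinks changes at low levels, the differences as deposited were 0.94 for Psmb9 against 1.09 for Psmb6. They were 0.80 for Psmb10 against 0.29 for Psmb7, and 1.24 for Psmb8 against 1.75 for Psmb5. With the trends removed they were, in the same order, 0.22 against 0.45, -0.12 against 0.40, and 0.60 against 0.77. The ratios are of deposited TPM and were not computed with the trends removed. The constitutive forms were far more abundant in all 4 samples. Psme1 and Psme2, the subunits of the PA28 activator of the proteasome, were already at 51.00 to 67.22 TPM in +/+ cells. They were at 79.93 and 88.70 TPM (Psme1) and 74.93 and 77.53 TPM (Psme2) in Chd5-/- cells, and their differences of 0.52 and 0.37 became -0.37 and -0.36 with the trends removed. Nlrc5, the activator of class I genes, was under 1 TPM in every sample, at 0.07 and 0.15 TPM in +/+ cells and 0.31 and 0.19 TPM in Chd5-/- cells.

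**Figure D2:**
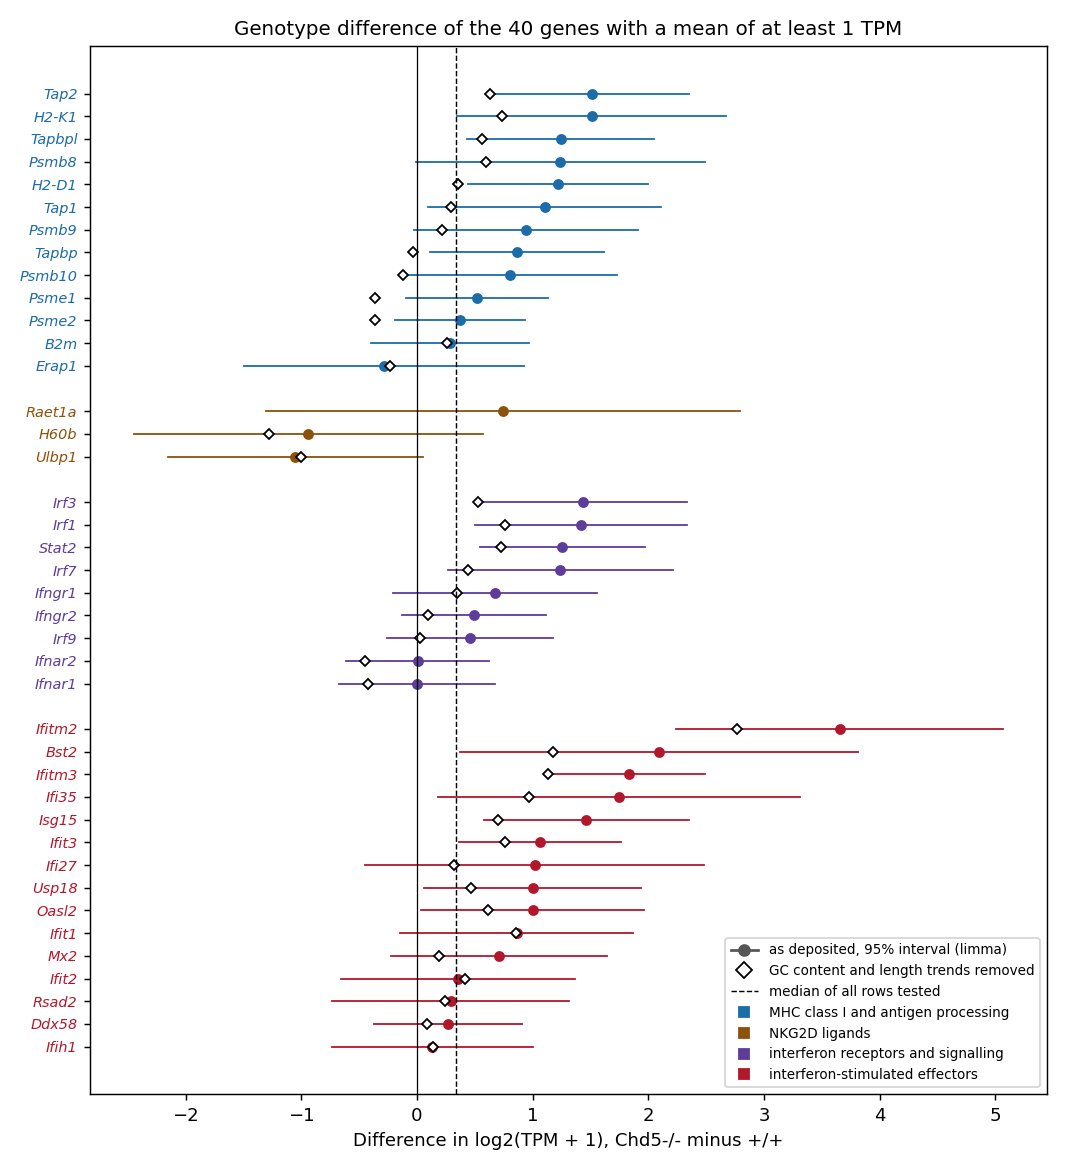
Difference in log2(TPM + 1) between Chd5-/- and +/+ for each of the 40 genes tested, grouped and coloured by set, with its 95% interval from limma. Open diamonds give the difference with GC content and length trends removed, and the dashed line marks the median of all rows as deposited. Most diamonds of the MHC class I set lie left of their circles, Tapbp going from 0.87 to -0.038, and Ifitm2 goes from 3.65 to 2.77.

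NKG2D ligands form the second set. 3 of the 5 names had a row, all 3 were tested, and 0 passed an unadjusted p of 0.05 in either direction. Ulbp1 was at 2.03 and 2.86 TPM in +/+ cells and 1.19 and 0.24 TPM in Chd5-/- cells. Both Chd5-/- samples were lower, with a difference of -1.05 (standard error 0.43, unadjusted p = 0.057 and adjusted p = 0.22 by limma), and -1.0 with the trends removed. H60b was at 20.66 and 19.88 TPM against 19.34 and 5.03 TPM. The groups did not overlap, but Chd5-/- replicate 1 lay within 1 TPM of the nearer +/+ sample, so the difference of -0.94 (standard error 0.59) came from replicate 2. Raet1a was at 11.16 and 21.62 TPM against 61.43 and 11.36 TPM, and here the high value came from Chd5-/- replicate 1. Its difference was 0.74 with a 95% interval from -1.31 to 2.79, and -0.42 without that sample. Raet1a belongs to a family of near-identical genes and may share reads with them. In all 3 ligands replicate 1 was above replicate 2 within Chd5-/-, by 3.84 to 5.41 times.

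The third set holds the receptors and the proteins that signal from them. All 9 genes were tested, and 4 were higher in Chd5-/- cells at an unadjusted p under 0.05 (21.9% of all rows were). The median difference was 0.67 as deposited and 0.34 with the trends removed. The type I receptor genes overlapped between the genotypes. Ifnar1 was at 63.69 and 51.67 TPM in +/+ cells and 48.76 and 67.21 TPM in Chd5-/- cells, with a 95% interval of the difference from -0.68 to 0.67. Ifnar2 was at 30.92 and 39.86 TPM against 36.14 and 34.39 TPM, with an interval from -0.61 to 0.62. The genes of the interferon gamma receptor were higher in both Chd5-/- samples without passing the unadjusted threshold, Ifngr1 at 23.34 and 20.02 TPM against 47.38 and 25.93 TPM and Ifngr2 at 27.16 and 25.86 TPM against 42.96 and 33.14 TPM.

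The 4 that passed were transcription factors. Stat2, a transcription factor of type I signalling, was at 5.24 and 4.20 TPM in +/+ cells and 12 and 13.27 TPM in Chd5-/- cells. Its groups lay well apart and the Chd5-/- samples were close to each other, with a difference of 1.26 (standard error 0.28, unadjusted p = 0.0059 and adjusted p = 0.12 by limma), and 0.72 (unadjusted p = 0.023 by limma) with the trends removed. Irf3, the factor activated by nucleic acid sensors, was at 7.18 and 4.21 TPM against 14.19 and 19.51 TPM, a difference of 1.43 (0.53 with the trends removed). Irf1, a factor induced by interferon gamma, was at 3.73 and 1.86 TPM against 8.86 and 8.78 TPM, a difference of 1.42 (0.76 with the trends removed). Irf7, the factor that amplifies type I interferon, was at 0.64 and 0.12 TPM against 2.24 and 2.15 TPM, a difference of 1.24 (0.44 with the trends removed). It entered the test only through its Chd5-/- level. Within Chd5-/-, the ratio of replicate 1 to replicate 2 was 0.727 to 1.04 in these 4 genes, against 2.49 for H2-K1. Irf9 was at 6.53 and 6.75 TPM against 8.38 and 10.75 TPM, a difference of 0.46 that missed the threshold.

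The effectors, the proteins that act on viruses or on the signal itself, had 17 rows and 15 tested. 8 were higher at an unadjusted p under 0.05 and 0 lower, where 21.9% of all rows were higher and 2.27% lower. All 15 differences were positive, the smallest being 0.13 (Ifih1), as were those of 8850 of the 12576 rows tested. The median as deposited was 1.00, the value of Usp18 (+/+ mean 0.875 TPM), which entered the test only through its Chd5-/- level. The median was 0.62 with the trends removed, when 3 passed (5.11% of all rows were then higher).

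The interferon-induced transmembrane proteins block viral entry at membranes. Ifitm2 (chr7:140954837-140955987) was at 10.98 and 6.43 TPM in +/+ cells and 199.18 and 69.43 TPM in Chd5-/- cells. It had the largest difference of the 40 genes, 3.65 (standard error 0.56, unadjusted p = 0.0010 and adjusted p = 0.12 by limma), and 2.77 with the trends removed. In mean TPM this was 15.4-fold, with replicate 1 at 22.9 times and replicate 2 at 7.98 times the +/+ mean. Ifitm3 (chr7:141009586-141010770), near it on the same chromosome, was at 10.91 and 8.33 TPM against 35.57 and 37.64 TPM. The Chd5-/- samples were nearly equal, and the difference was 1.83 (standard error 0.26, unadjusted p = 0.00070 and adjusted p = 0.12 by limma), and 1.13 with the trends removed. The promoter of Ifitm2 shown above holds 1 ISRE core before the start, and that of Ifitm3 holds 2 within the bases after the start.

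Several effectors were low in +/+ cells. Isg15, a ubiquitin-like protein that is attached to others, was at 0.32 and 0.30 TPM against 2.32 and 2.94 TPM (difference 1.47, 0.70 with the trends removed). Usp18, which removes Isg15 and dampens the receptor, was at 1.08 and 0.67 TPM against 3.35 and 2.2 TPM (difference 1.00). Oasl2, of the oligoadenylate synthetase family, was at 2.04 and 0.94 TPM against 4.25 and 3.49 TPM (difference 1.00). These 3 were higher in both Chd5-/- samples with an unadjusted p under 0.05, but Isg15 and Usp18 entered the test only through their Chd5-/- level. Bst2 (tetherin), which holds virus particles at the cell surface, was at 1.99 and 1.76 TPM against 23.36 and 5.15 TPM, and Ifi35 was at 0.85 and 0.60 TPM against 9.39 and 2.21 TPM. Their differences of 2.09 and 1.75 passed an unadjusted p of 0.05 by limma, with replicate 1 of Chd5-/- 4.54 and 4.25 times as high as replicate 2. Ifi35 entered the test only through its Chd5-/- level.

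The Ifit genes, whose proteins bind foreign RNA, differed among themselves. Ifit3 was at 7.90 and 6.25 TPM against 14.65 and 17.05 TPM, a difference of 1.07 (standard error 0.28, unadjusted p = 0.011 and adjusted p = 0.13 by limma), and 0.76 with the trends removed. Ifit1 was at 3.04 and 2.39 TPM against 7.92 and 4.06 TPM, higher in both without passing the threshold (difference 0.86). Ifit2 overlapped, at 7.77 and 7.99 TPM against 14.91 and 7.09 TPM. Ifih1 and Ddx58, the sensors MDA5 and RIG-I, were at 2.88 to 3.92 TPM and 14.89 to 18.44 TPM in +/+ cells and 3.14 to 4.55 TPM and 19.54 to 20.85 TPM in Chd5-/- cells. Rsad2 (viperin) overlapped between the groups (3.79 and 4.26 against 7.39 and 3.49 TPM), as did Ifi27 (40.89 and 31.10 against 132.84 and 40.27 TPM). Mx2 was at 1.82 and 1.03 TPM against 2.47 and 3.40 TPM. Mx1 was at 0.19 and 0.18 TPM against 0.54 and 0.73 TPM, and Oas1a did not exceed 0.06 TPM in any sample.

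Genes with and without the ISRE core had like medians as deposited. The 13 tested genes with the core in a promoter had a median of 0.86, and 6 passed an unadjusted p of 0.05. The 20 without it had a median of 0.90 and 9 passed. At that threshold 21.9% of all rows were higher. With the trends removed the medians were 0.70 and 0.32. These are descriptions without a test.

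The 2 Chd5-/- cultures were not alike in these genes. Replicate 1 was above replicate 2 in 29 of the 40, with a median difference of 0.39 on the log2 scale, where the median of all rows was -0.0021. Replicate 1 was at least 2-fold above replicate 2 in 9 of the 40 (8.87% of all rows), and replicate 2 at least 2-fold above replicate 1 in 0 (8% of all rows). The 9 were H2-K1, Psmb8, Erap1, Raet1a, H60b, Ifitm2, Bst2, Ifi35 and Ifi27. The levels of the 44 genes summed to 976 and 1036 TPM in +/+ cells and to 1860 and 1261 TPM in Chd5-/- cells. Without Chd5-/- replicate 1, 17 of the 40 genes were higher and 3 lower at an unadjusted p under 0.05 by limma, where 27.8% of all rows were higher and 7.5% lower. Without Chd5-/- replicate 2, 26 were higher and 0 lower, where 25.9% of all rows were higher and 5.6% lower. The NSC markers had their lowest sum in replicate 1 (3987 TPM), the sample with the highest sum of the genes described here. Fabp7 and Slc1a3 were at 5892 and 1871 TPM in +/+ replicate 1 and at 1939 and 442 TPM in Chd5-/- replicate 1. Of the 10 markers, 2 were above replicate 2 in Chd5-/- replicate 1, Nes (94.66 TPM) and Prom1 (45.27 TPM). Both were there at their highest level of the 4 samples. The part of the NSC markers in the result was not tested. The 6 markers of mesenchymal cells summed to 12.23 TPM in replicate 1 and to 0.02 to 0.17 TPM in the other 3 samples. Most of that sum was Col3a1 (7.41 TPM) and Dcn (4.17 TPM). Col1a2, Lum and Pdgfrb were at 0.08 to 0.37 TPM there, and Col1a1 at 0 there and 0.07 TPM in replicate 2. Their part in the result was not tested.

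**Figure D3:**
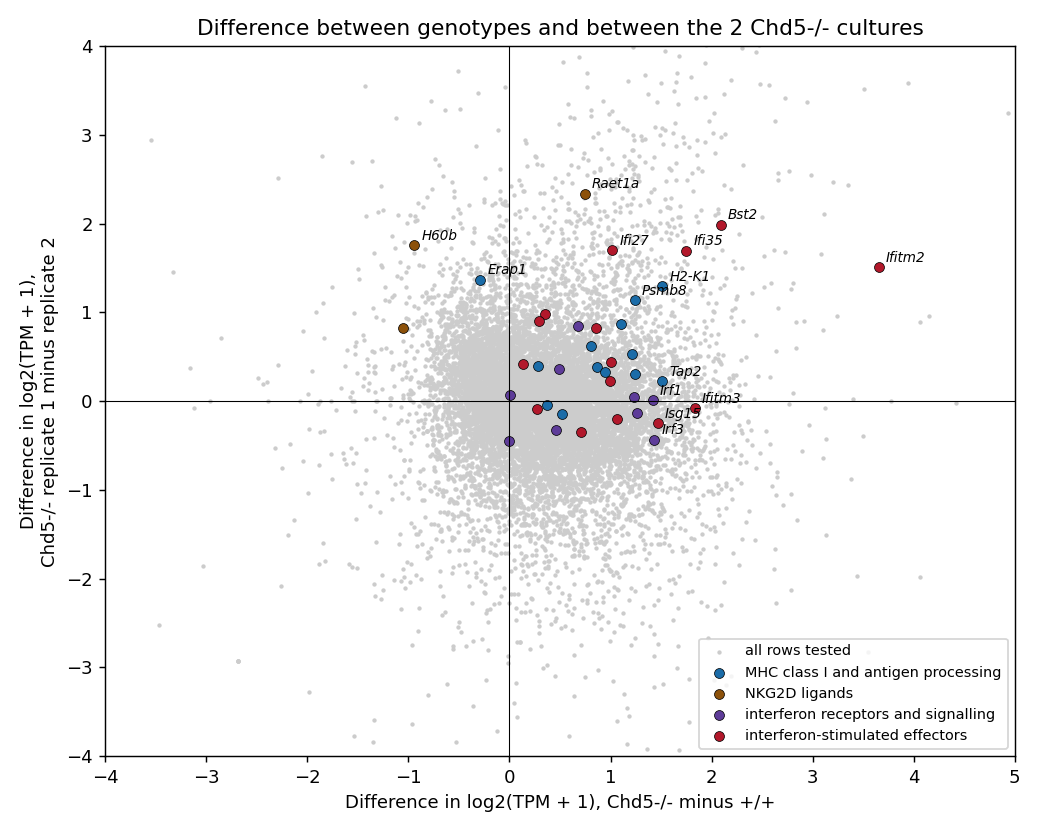
Difference in log2(TPM + 1) between genotypes (x axis) against the difference between Chd5-/- replicate 1 and replicate 2 (y axis), with all rows tested in grey and the 40 genes coloured by set. Bst2, Ifi35, H2-K1 and Ifitm2 lie to the right and above 1 on the y axis, while Ifitm3, Irf1, Irf3 and Isg15 lie to the right and near 0.

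Other genes of the same pathways, taken from lists by name, were higher in 13 and lower in 2 of 67 tested at an unadjusted p under 0.05, with a median difference of 0.36. These counts were near the 21.9% and 2.27% of all rows, and the median near the 0.34 of all rows. They include genes that entered the test through the level of 1 genotype, such as Ifi44 below. The genes named from these lists are described singly. Of 12 names of interferons and related genes, 2 had a row (Ifnlr1 and Il6), both under 1 TPM in all 4 samples. Of 12 tested JAK-STAT and IRF genes, 3 were higher, again near the share of all rows. Jak1, a kinase of both receptors, overlapped between the groups, at 75.25 and 71.51 TPM against 59.21 and 74.36 TPM. Of 10 tested genes of nucleic acid sensing and the signalling from it, 1 was higher (Mavs) and 1 lower, where 21.9% and 2.27% of all rows were. The lower one was Tlr3, the sensor of double-stranded RNA in endosomes, at 73.88 and 64.50 TPM against 32.17 and 18.85 TPM, a difference of -1.45 (standard error 0.32, unadjusted p = 0.0054 and adjusted p = 0.12 by limma), and -1.32 with the trends removed.

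Of 26 other interferon-stimulated genes tested, 5 were higher and 1 lower, where 21.9% and 2.27% of all rows were. The higher ones included Rtp4 (2.50 and 1.08 against 8.77 and 7.73 TPM, difference 1.78), Lgals3bp (2.21 and 2.23 against 14.65 and 5.06 TPM, difference 1.60) and Ifi44 (0.96 and 0.62 against 4.30 and 3.09 TPM, difference 1.39). With the trends removed these were 1.39, 0.75 and 1.51. Ifi44 (+/+ mean 0.79 TPM) and Lgals9 (0.575 TPM), another of the 5, entered the test only through their Chd5-/- level. Their p-values are no support for a difference. The lower one was Ifi204, a DNA sensor, at 1.81 and 4.54 TPM against 0.58 and 0.06 TPM. In Ifi204 the reverse held, as it entered the test only through its +/+ level. Of 5 other class I genes tested, H2-Q4 and H2-T9 were higher, and of 5 class II genes 1 was (H2-DMa). The 6 genes of class I assembly in the endoplasmic reticulum, chaperones that serve many proteins, had 0 passing and a median of -0.19. Of the 3 constitutive catalytic proteasome subunits, Psmb6 was higher, at 50.56 and 36.11 TPM against 94.71 and 89.17 TPM.

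The order of the 4 sets by median could be set beside all rows under each way of processing. The median of the NKG2D ligands lay below 0 and below that of all rows under every alternative shown. It was taken over 3 genes, or over 2 with the trends removed or a minimum of 10 TPM. Raet1a went the other way as deposited (0.74), and without Chd5-/- replicate 2 the median was -0.064. The medians of the other 3 sets lay above that of all rows. Each of these sets includes at least 1 gene that entered the test only through its Chd5-/- level. As deposited, the medians of MHC class I and of the effectors were themselves the values of such genes, Psmb9 and Usp18. The place of both above all rows as deposited is therefore no support for a difference.

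**Figure D4:**
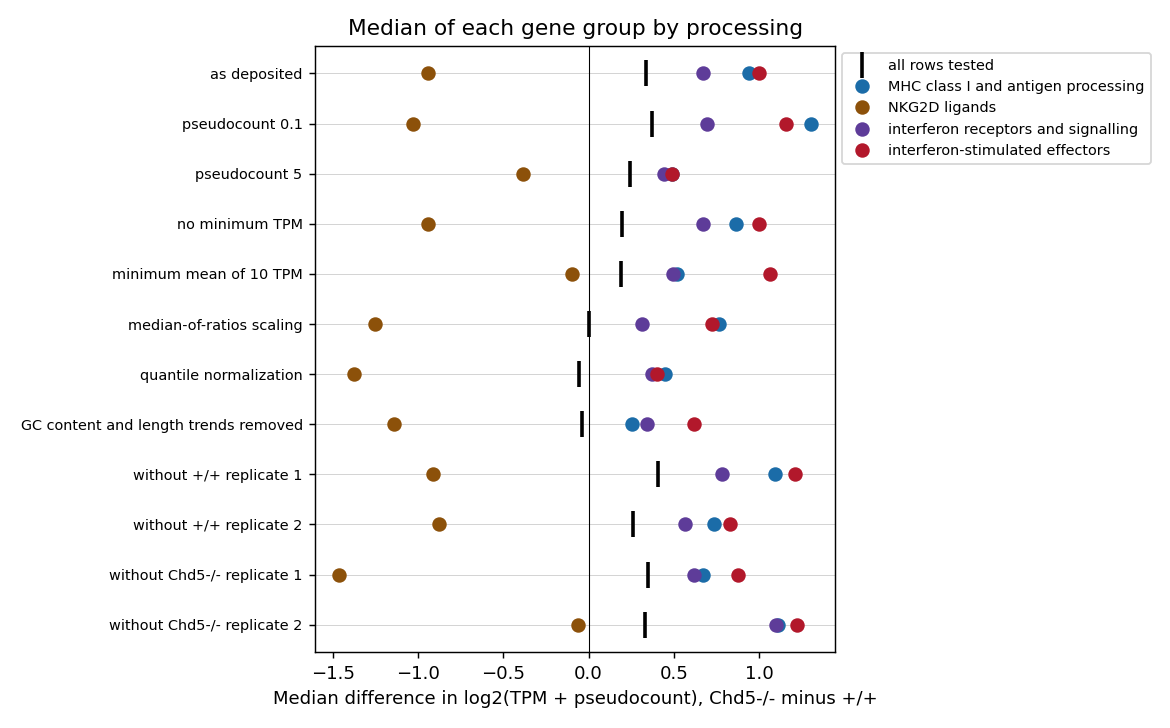
Median difference in log2(TPM + pseudocount) between Chd5-/- and +/+ of the 4 sets (coloured points) and of all rows tested (black bars) as deposited and under 11 alternatives. Clearing the GC and length trends takes the MHC class I median from 0.94 to 0.26, and the median of all rows from 0.34 to -0.037.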

How the data were processed

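RNA of 2 +/+ and 2 Chd5-/- NSC cultures had been made into libraries with a stranded mRNA kit. The authors deposited 1 table of TPM values per gene with 2 decimals. The submitters' processing notes name build mm10, Bowtie2 2.2.3 and RSEM 1.2.20, with no roles or settings. TPM keeps no depth, so the depth is unknown and no counting interval was given. Columns of no sample in the labels numbered 0.

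Values were tested as log2(TPM + 1) with limma 3.58.1 in R 4.3.3 (lmFit, then eBayes with a trend, two-sided), over rows averaging 1 TPM or more, with Benjamini-Hochberg adjustment over all of them. The script was tested on simulated data. Coordinates, GC content and length were those of GENCODE release M21 (GRCm38), which gave GC content and length for 96.2% of tested rows and 97.5% of the 40 genes (not Raet1a). To remove these trends, a linear loess of span 0.5 on both was fitted to what each sample departed from its row's mean, and was subtracted. Median-of-ratios factors came from the rows tested. Alternatives were the pseudocount, the minimum TPM, 2 scalings, removal of the trends, a block for the replicate number, no trend in eBayes, and leaving out each sample. A 2-fold difference was taken on the log2(TPM + 1) scale.

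Every gene of the list was named, as were, from the pathway lists, at most 3 of the highest and 3 of the lowest differences with an unadjusted p under 0.05 and no overlap, along with the constitutive proteasome subunits, Jak1 and Chd5. An item withheld from this account is not reported here. Mavs, H2-Q4, H2-T9, H2-DMa, Lgals9, Ifnlr1, Il6 and the single markers of NSCs and mesenchymal cells were named after their values were seen. The genes and lists were chosen with earlier results of these data known. Tables were made with Python 3.11.15.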

Additional observations from a re-analysis of the deposited data

How the results depend on the processing

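Of 40 genes, 24 kept a positive and 2 a negative difference under each of the 14 alternatives that tested them, and 14 changed sign under at least 1. Where no value below shows a cause, the cause was not tested.

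As deposited 7 rows of all genes had an adjusted p under 0.05. There were 4 with a pseudocount of 0.1, 0 with no minimum TPM, 1 after quantile normalization, 3 with GC and length trends removed, and 0 to 1247 with 1 sample left out. At an unadjusted p under 0.05, 2748 rows were higher and 285 lower. The higher rows were 1512 with a minimum of 10 TPM (fewer rows tested), 1508 with median-of-ratios factors, 1103 with quantile normalization and 618 with trends removed. The lower rows were 1311, 1024 and 777 under the last 3 of these. With 1 sample left out the higher rows ranged from 723 to 3493 and the lower from 81 to 943. Of the interferon and antigen presentation genes, 18 were higher: 7 with a minimum of 10 TPM (19 tested), 6 after quantile normalization, 4 with trends removed, and 3 to 26 with 1 sample left out, the counts being 7 without +/+ replicate 1 and 3 without +/+ replicate 2. 0 were lower as deposited, 1 each with no minimum TPM, median-of-ratios scaling, quantile normalization and eBayes without a trend, and 0 to 3 with 1 sample left out.

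The median of all rows, 0.34, was 0.24 with a pseudocount of 5, 0.19 with no minimum, 0.19 with a minimum of 10 TPM, 0.0052 with median-of-ratios factors, -0.054 with quantile normalization, -0.037 with trends removed, and 0.26 to 0.41 with 1 sample left out. The MHC class I median, 0.94, was 1.31 with a pseudocount of 0.1, 0.49 with 5, 0.52 with a minimum of 10 TPM, 0.45 after quantile normalization, 0.26 with trends removed, and 0.67 to 1.11 with 1 sample left out. The signalling median, 0.67, was 0.44 with a pseudocount of 5, 0.31 with median-of-ratios factors, 0.37 with quantile normalization, 0.34 with trends removed, and 0.57 to 1.10 with 1 sample left out. The effector median, 1.00, was 0.40 after quantile normalization, and 0.83 to 1.22 with 1 sample left out. The NKG2D median, -0.94, was -1.46 to -0.064 with 1 sample left out.

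Differences of single genes that changed sign were as follows. After median-of-ratios scaling they were -0.36 (Ifnar2), -0.16 (Ifih1), -0.089 (B2m), -0.085 (Ddx58) and -0.015 (Rsad2). After quantile normalization they were -0.24 (Ifnar2), -0.20 (Ifit2), -0.53 (Ifih1), -0.12 (Ddx58), -0.36 (Rsad2) and -0.14 (Irf9). With trends removed, with or without the replicate block, they were -0.45 (Ifnar2), -0.038 (Tapbp), -0.12 (Psmb10), -0.37 (Psme1) and -0.36 (Psme2). With 1 sample left out, the differences ranged from -0.42 to 1.91 (Raet1a, lowest without Chd5-/- replicate 1), from -0.17 to 0.18 (Ifnar2), from -0.23 to 0.22 (Ifnar1), from -0.13 to 0.84 (Ifit2), from -0.078 to 0.35 (Ifih1), from -0.16 to 0.74 (Rsad2) and from -0.97 to 0.40 (Erap1, highest without Chd5-/- replicate 2).

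The replicate numbers are shared by the genotypes, and the labels state no pairing. Deviations of same-numbered samples correlated at -0.15. With the replicate block 14 genes of the list were higher, and 2111 rows were higher, 178 lower and 0 had an adjusted p under 0.05. With the block and trends removed, 2 genes of the list, 415 higher and 470 lower rows passed, 0 after adjustment. There the medians were -0.037 (all rows), 0.26 (MHC class I) and 0.34 (signalling). The crossed pairing, added after seeing the data, gave 16 genes of the list and 2808 higher and 284 lower rows.

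Another 2 alternatives were added after seeing the data. The factors of median-of-ratios scaling had first been taken from all rows, and were taken from the rows tested once an earlier account of these data was seen to give other counts. With the factors from all rows, 1391 rows were higher and 1507 lower, and 12 genes of the list were higher and 1 lower. A quadratic in place of a linear loess gave 640 higher and 727 lower rows, 3 with an adjusted p under 0.05, and 4 genes of the list higher. Where 1 sample was left out, the lone sample of its genotype was assumed to vary like the other genotype. With 2 samples a genotype and an unknown depth, levels near or under 1 TPM were the least certain.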

Other observations

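Some genes outside the list were singled out after their values were seen, because 1 Chd5-/- sample stood far above the other 3. H2-Ab1, a class II chain, was at 16.69 TPM in Chd5-/- replicate 1 and at 0.25 and 0.60 TPM in +/+ cells and 0.86 TPM in Chd5-/- replicate 2. Ifi30, a lysosomal reductase of the class II route, was at 13.44 TPM in that sample and at 0.43 to 1.43 TPM in the other 3. Both are given as values without a test.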
